A study of Mus musculus with 2 samples.

Results

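Genes of cyclic AMP (cAMP) and protein kinase A (PKA) signalling were described in mouse adrenal gland by long-read RNA sequencing. They were chosen by gene name: the numbered adenylyl cyclases (Adcy), phosphodiesterases (Pde) and A-kinase anchoring proteins (Akap), the PKA catalytic (Prkaca, Prkacb) and regulatory subunits (Prkar1a, Prkar1b, Prkar2a, Prkar2b), Creb1, Creb3, Crem, and the CREB coactivators Crtc1, Crtc2 and Crtc3. GENCODE M21 holds 60 genes with such names, and 52 of them had reads, out of 18168 annotated mouse genes with reads. The tissue came from B6CASTF1/J male mice aged 25 days, a cross of laboratory and wild-derived mouse strains, with no named allele or treatment. There were 2 libraries of total RNA in 1 group, numbered replicates 1 and 2, so no condition could be compared and every comparison below sets replicate 1 against replicate 2. The library labels name 1 animal for both libraries and the tissue labels name a different animal for each, under a single donor record. Whether the libraries came from 1 animal or 2 is thus not settled, and their spread may not be one between animals.

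In this pathway a hormone receptor acts through the stimulatory G protein on an adenylyl cyclase, which makes cAMP. The cAMP binds PKA regulatory subunits and frees the catalytic subunits, which phosphorylate enzymes, channels and the CREB family of transcription factors, while phosphodiesterases break cAMP down and anchoring proteins hold PKA at particular places in the cell. In the adrenal cortex it is the pathway through which corticotropin drives steroid hormone synthesis, and mutations in PRKAR1A, PRKACA, PDE8B and PDE11A are known from human adrenocortical disease.

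Each read stands for 1 sequenced molecule, so levels are given as reads per 1000000 reads in annotated genes (CPM) without a length correction. Replicate 1 held 752432 such reads and replicate 2 held 1210671. A gene with 0 reads could still have up to 3.99 CPM in replicate 1 or 2.48 CPM in replicate 2 (3 reads). Log2 ratios are replicate 1 over replicate 2, with a prior of 0.5 reads and a standard error (SE) from counting. A gene is called different where Fisher's exact test (two-sided) of its reads against all other gene reads gave a Benjamini-Hochberg adjusted p under 0.05 over the 11382 genes whose 2 libraries together held 10 reads or more. This test compares 2 libraries with counting error alone, and reads are not corrected for PCR copies. The median log2 ratio of all tested genes was 0.34, and with TMM or DESeq2 scaling it was -0.02 or -0.03, so ratios near 0.34 are those of the typical gene. The libraries also differed in cell type markers: 8 adrenal cortex genes reached a sum of 62403 CPM in replicate 1 and 25354 CPM in replicate 2, and 6 liver genes summed to 5.32 and 43821 CPM. For 8 skeletal muscle genes the sums were 2536 CPM in replicate 1 and 6.61 CPM in replicate 2, and 6 medulla genes gave 9435 and 7129 CPM. Their part in the differences below was not tested.

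Together the pathway genes took 0.433% of gene reads in replicate 1 (3259 reads, 4331 CPM) and 0.263% in replicate 2 (3189 reads, 2634 CPM), a mean of 3483 ± 1200 CPM (SD, n = 2). The 6 PKA subunit genes held most of this, 60.3% of the members' reads in replicate 1 and 60.8% in replicate 2. Reads were found in 49 members in replicate 1 and 50 in replicate 2, with 47 in both. Of the 60 members, 42 had enough reads to be tested, 10 had 1 to 9 reads and 8 had 0 reads in both libraries. Among the 42, 18 were higher in replicate 1, 1 was lower and 23 were not called. Over all tested genes 25.3% were called higher and 11.5% lower in replicate 1 (36.8% in either direction), and 42.9% of the tested members were called higher. With TMM factors, DESeq2 size factors or totals without genes over 10-fold different, 12 members were higher and 3 lower. Under these 3 scalings 13.3% to 13.6% of all tested genes were called higher and 17.9% to 18.3% lower, so over all genes lower calls then outnumbered higher ones. With an assumed coefficient of variation of 0.2 between libraries, 7 members were higher and 1 lower, against 6.53% and 6.85% of all tested genes. The assumed variation ended the calls of Prkar1a (adjusted p = 0.263 by edgeR's exact test), Prkacb (0.0673), Prkar1b (0.13), Pde8b (0.226) and Crem (0.0584), and of the 6 members whose calls each of the 3 scalings also ended (Adcy3, Akap1, Creb1, Creb3, Pde12 and Pde1a). The median log2 ratio was 0.65 over the tested members and 0.34 over all genes tested, and with TMM factors it was 0.29 and -0.02.

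**Figure D1:**
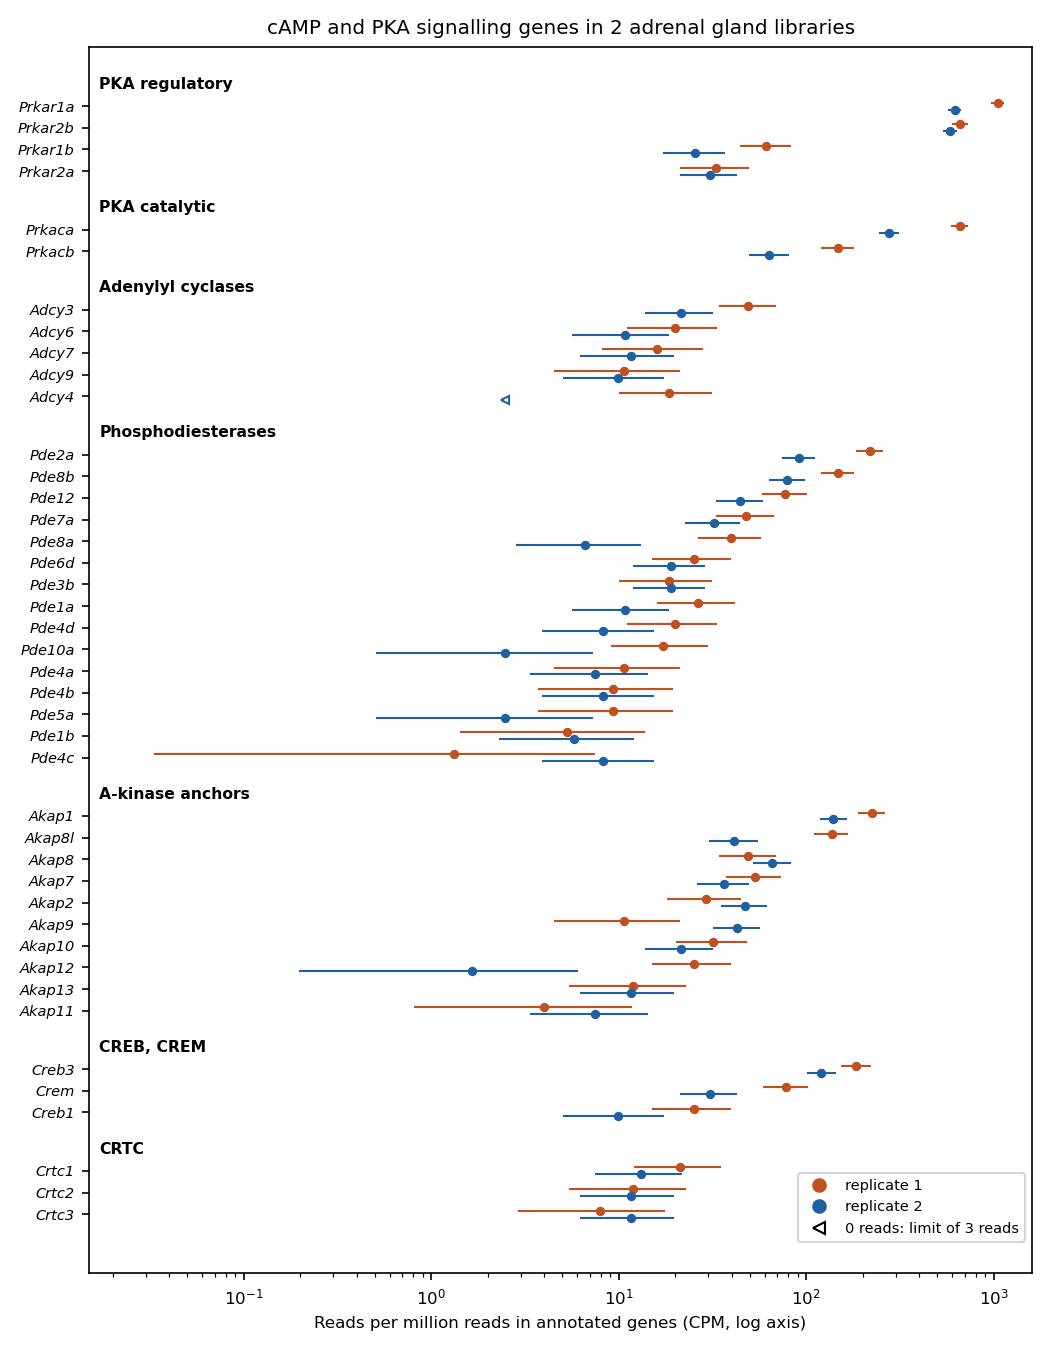
Level of the 42 tested pathway genes in CPM (log axis), by family, with replicate 1 above replicate 2 for each gene and lines for 95% Clopper-Pearson intervals, which cover counting error only. Prkar1a, Prkar2b and Prkaca stand above the other genes in both libraries, and the open triangle for Adcy4 in replicate 2 marks the limit that 0 reads allow (3 reads).

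The regulatory subunits of PKA were the most abundant family, 1807 CPM in replicate 1 and 1263 CPM in replicate 2, and a pair of paralogs supplied nearly all of it. Prkar1a, the type Iα subunit (chromosome 11, 109649405 to 109669656, mm10, plus strand), had 790 reads (1050 CPM) in replicate 1 and 749 reads (619 CPM) in replicate 2. It was the most abundant member in both libraries and was called higher in replicate 1 (log2 ratio 0.76 ± 0.07 SE, adjusted p = 1.24e-23 by Fisher's exact test), with a log2 ratio of 0.41 under TMM factors. Prkar2b, the type IIβ subunit (chromosome 12, 31958476 to 32061296, minus strand), had 499 reads (663 CPM) in replicate 1 and 712 reads (588 CPM) in replicate 2. Its log2 ratio of 0.17 ± 0.08 was not called, and under TMM factors the ratio was -0.18. The other paralogs were far lower: Prkar1b had 61.1 CPM in replicate 1 and 25.6 CPM in replicate 2 and was called higher in replicate 1 (log2 ratio 1.25 ± 0.33). Prkar2a had 33.2 and 30.6 CPM, a difference within counting error. Prkar1a reads outnumbered Prkar1b reads 17.2 to 1 in replicate 1 and 24.2 to 1 in replicate 2, and Prkar2b reads outnumbered Prkar2a reads 20.0 to 1 and 19.2 to 1. The balance of the leading pair moved between the libraries: there were 1.58 Prkar1a reads per Prkar2b read in replicate 1 (95% interval 1.41 to 1.77) and 1.05 in replicate 2 (0.948 to 1.17).

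The regulatory subunits differ at the short inhibitor site that occupies the catalytic cleft, where type II subunits carry a serine that PKA can phosphorylate and type I subunits carry alanine or glycine in its place. The coding stretch at that site is shown for the annotated transcript with the most reads of each gene (GENCODE M21 transcript sequences, 5′ to 3′), with the codon of that residue in capitals.
Prkar1a-201: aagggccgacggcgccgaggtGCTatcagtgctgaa
Prkar1b-201: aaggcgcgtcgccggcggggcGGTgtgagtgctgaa
Prkar2b-202: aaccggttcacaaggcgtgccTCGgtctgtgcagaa
Prkar2a-201: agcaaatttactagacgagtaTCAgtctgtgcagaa
The stretches run from coding base 274 to 309 in Prkar1a-201 and Prkar1b-201, 313 to 348 in Prkar2b-202 and 268 to 303 in Prkar2a-201. Read by these codons, the type I genes (GCT and GGT) summed to 836 reads and the type II genes (TCG and TCA) to 524 reads in replicate 1, a ratio of 1.60 (1.43 to 1.78). In replicate 2 they had 780 and 749 reads, a ratio of 1.04 (0.941 to 1.15).

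The catalytic subunits reached a sum of 805 CPM in replicate 1 and 339 CPM in replicate 2, and both genes were called higher in replicate 1. Prkaca, the Cα subunit (chromosome 8, 83972993 to 83996443, plus strand), had 495 reads (658 CPM) in replicate 1 and 334 reads (276 CPM) in replicate 2 (log2 ratio 1.25 ± 0.10, adjusted p = 7.38e-34 by Fisher's exact test). Prkacb, the Cβ subunit (chromosome 3, 146729574 to 146812990, minus strand), had 111 reads (148 CPM) and 77 reads (63.6 CPM), with a log2 ratio of 1.21 ± 0.21. The Cα to Cβ balance differed by less than counting error, with 4.46 Prkaca reads per Prkacb read in replicate 1 (3.62 to 5.53) and 4.34 in replicate 2 (3.38 to 5.63). Regulatory reads exceeded catalytic reads 2.24 to 1 in replicate 1 (2.04 to 2.47) and 3.72 to 1 in replicate 2 (3.33 to 4.16), intervals that do not overlap. This ratio is taken within a library and does not depend on the scaling.

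The catalytic genes were each read mainly as 1 transcript. Prkaca-201, with 10 exons, took 475 of 489 spliced Prkaca reads (97.1%) in replicate 1 and 313 of 325 (96.3%) in replicate 2. Prkacb has alternative first exons that give its protein different amino ends, and 4 of them were read. The coding start of each is shown in lower case, followed by the first 15 bases of the exon they share in capitals (chromosome 3, GENCODE M21).
Prkacb-202: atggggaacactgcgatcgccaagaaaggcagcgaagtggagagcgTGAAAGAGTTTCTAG
Prkacb-203: atgaatgTGAAAGAGTTTCTAG
Prkacb-204: atgggcttgtTGAAAGAGTTTCTAG
Prkacb-201: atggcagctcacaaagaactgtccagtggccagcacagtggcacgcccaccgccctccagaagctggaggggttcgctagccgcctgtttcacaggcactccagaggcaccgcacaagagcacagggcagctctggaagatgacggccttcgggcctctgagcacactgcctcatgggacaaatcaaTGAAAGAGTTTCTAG
The first exon of Prkacb-202, which adds 46 coding bases, headed 90 of 106 spliced reads (84.9%) in replicate 1 and 65 of 71 (91.5%) in replicate 2. Prkacb-203, which adds 7, had 5 and 2 reads. Prkacb-204 and Prkacb-201, which add 10 and 187, had 2 reads each in replicate 1 and 1 each in replicate 2.

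Among the members with a RefSeq promoter, Prkar1a was the only gene with the full cAMP response element TGACGTCA, the palindrome that CREB family factors bind, in that window. A RefSeq promoter (GRCm38.p6, 250 bases before to 50 after a start site) was found for 48 of the 60 members. The members without one were not searched and are not named here, so a lack of the element in a given gene, such as Crem, is not shown. The element was in 1 of those 48 genes (2.08%), against 549 of all 27025 genes (2.03%). By promoter it was in 2 of their 90 (2.22%), against 588 of all 32851 (1.79%). The 30 bases around it, at chr11:109650889-109650918 on the plus strand, are shown with the element in capitals.
Prkar1a: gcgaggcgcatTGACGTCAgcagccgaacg
Its last base lay 14 bases before 109650921, the most upstream start of the leading Prkar1a models. The shorter element TGACG, counted on both strands and contained in the full one, was in 17 of the 90 promoters (18.9%) against 6837 of all promoters (20.8%). Counted by gene the order turned, with 15 of the 48 genes (31.2%) against 6228 of all 27025 genes (23.0%). Members had more promoters per gene, 90 for 48 genes against 32851 for 27025. A gene with more promoters has more windows for a match, and the count by gene was not adjusted for this. These matches describe letters in a window and were not tied to the levels.

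Prkar1a was read from 2 main first exons, and the start codon of Prkar1a-201 lies downstream of its first exon. The first exon of Prkar1a-201 headed 591 of 783 spliced reads in replicate 1 (75.5%, 95% interval 72.3 to 78.5) and 599 of 739 in replicate 2 (81.1%, 78.0 to 83.8). The exon of Prkar1a-202, whose splice donor lies upstream of it, headed 161 reads (20.6%) in replicate 1 and 116 (15.7%) in replicate 2. The whole Prkar1a-201 intron chain took 73.7% of spliced reads in replicate 1 and 80.1% in replicate 2, a called difference (adjusted p = 0.0364 by Fisher's exact test over 3650 genes, of which 10.5% were called). Prkar2b-202 took 392 of 487 spliced reads (80.5%) in replicate 1 and 594 of 703 (84.5%) in replicate 2, not called. A 12-exon form, Prkar2b-201, had 49 reads in replicate 1 and 34 in replicate 2.

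Adenylyl cyclases were low. The 10 genes together gave 126 CPM in replicate 1 and 60.3 CPM in replicate 2, less than Prkacb alone in each library. Adcy3 was the highest, with 37 reads (49.2 CPM) in replicate 1 and 26 reads (21.5 CPM) in replicate 2, and was called higher in replicate 1 (log2 ratio 1.19 ± 0.37) but not under TMM or DESeq2 scaling. Adcy6 had 19.9 CPM in replicate 1 and 10.7 CPM in replicate 2, Adcy7 15.9 and 11.6 CPM, and Adcy9 10.6 and 9.91 CPM, none of them called. Adcy4 had 14 reads (18.6 CPM) in replicate 1 and 0 in replicate 2, at least 7.51-fold higher in replicate 1 when replicate 2 is set at its limit of 3 reads (adjusted p = 1.10e-05 by Fisher's exact test). That bound takes the 14 reads as counted, and their own interval is 10.2 to 31.2 CPM. For 6 endothelial genes the sums were 635 CPM in replicate 1 and 564 CPM in replicate 2. Adcy5 had 3 and 6 reads, Adcy2 3 and 2, and Adcy1 3 and 0, while Adcy8 and Adcy10 had none. Few reads of Adcy3 and Adcy7 were in known transcripts. Known transcripts took 3 of 37 Adcy3 reads in replicate 1 and 1 of 26 in replicate 2, and 0 of the 12 and 14 Adcy7 reads. Of the Adcy3 reads, 22 in replicate 1 and 6 in replicate 2 had annotated splice sites in a combination not annotated (class NIC). Incomplete splice matches held 8 and 16 Adcy3 reads, and 8 and 10 Adcy7 reads.

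Phosphodiesterases had a sum of 683 CPM in replicate 1 and 357 CPM in replicate 2 over 23 genes, of which 15 were tested, 6 were called higher in replicate 1 and none lower. Pde2a, which hydrolyses both cAMP and cGMP and is activated by cGMP, was the highest, with 164 reads (218 CPM) in replicate 1 and 111 reads (91.7 CPM) in replicate 2 (log2 ratio 1.25 ± 0.18). Pde8b, a high-affinity enzyme specific for cAMP, followed with 111 reads (148 CPM) in replicate 1 and 96 reads (79.3 CPM) in replicate 2 (log2 ratio 0.89 ± 0.20). Its paralog Pde8a had 30 reads (39.9 CPM) in replicate 1 and 8 reads (6.61 CPM) in replicate 2, a log2 ratio of 2.53 ± 0.56. There were thus 3.70 Pde8b reads per Pde8a read in replicate 1 (2.45 to 5.74) and 12 in replicate 2 (5.85 to 28.6). Pde12, which is named with the family but degrades short oligoadenylates and RNA tails, had 77.1 and 44.6 CPM. Pde1a, activated by calcium and calmodulin, had 26.6 CPM in replicate 1 and 10.7 CPM in replicate 2, and Pde10a had 17.3 and 2.48 CPM (13 and 3 reads). The calls of Pde12 and Pde1a were lost under TMM or DESeq2 scaling.

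The other tested phosphodiesterases were not called. Pde7a, specific for cAMP, had 47.8 CPM in replicate 1 and 32.2 CPM in replicate 2. Pde6d, which carries prenylated proteins and is no enzyme, had 25.3 and 19.0 CPM, and Pde3b, which cGMP inhibits, had 18.6 and 19.0 CPM. Of the cAMP-specific family 4, Pde4d had 19.9 CPM in replicate 1 and 8.26 CPM in replicate 2. Pde4a had 10.6 and 7.43 CPM, Pde4b 9.30 and 8.26 CPM, and Pde4c 1.33 and 8.26 CPM (1 and 10 reads). The cGMP-specific Pde5a had 9.30 and 2.48 CPM, and Pde1b 5.32 and 5.78 CPM. Under 10 reads remained for Pde3a (4 and 3), Pde7b (3 and 1), Pde9a (0 and 7), Pde6c (0 and 1) and Pde11a (0 and 1). Pde1c, Pde6a and Pde6b, the last 2 of them rod photoreceptor subunits, had 0 reads in both libraries.

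For Pde2a the gene record changed what the files showed. Its leading intron chain, with 30 exons, took 138 of 160 spliced reads (86.3%) in replicate 1 and 47 of 101 (46.5%) in replicate 2, which the test called (adjusted p = 8.17e-10 by Fisher's exact test). The other main chain, with 31 exons, had 0 reads under Pde2a in replicate 1 and 45 in replicate 2. The identical intron chain was present in replicate 1 with 87 reads, but under the record Gm45837, which overlaps Pde2a on the same strand. Gm45837 held 149 reads in replicate 1 and 49 in replicate 2. With the records joined, a step added after seeing the data, the leading chain took 138 of 309 spliced reads (44.7%) in replicate 1 and 47 of 148 (31.8%) in replicate 2, and the difference was no longer called (adjusted p = 0.0866 by Fisher's exact test). The chains differ by an exon of 62 nt (chr7:101461480-101461541), not a multiple of 3, that joined reads included in 99 of 261 cases in replicate 1 (37.9%, 32.0 to 44.1) and 54 of 106 in replicate 2 (50.9%, 41.0 to 60.8). The joined level was 313 reads (416 CPM) in replicate 1 and 160 reads (132 CPM) in replicate 2, so the Pde2a level above is uncertain and its log2 ratio was 1.65 ± 0.14 when joined. No other member had an identical chain under another gene record.

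**Figure D2:**
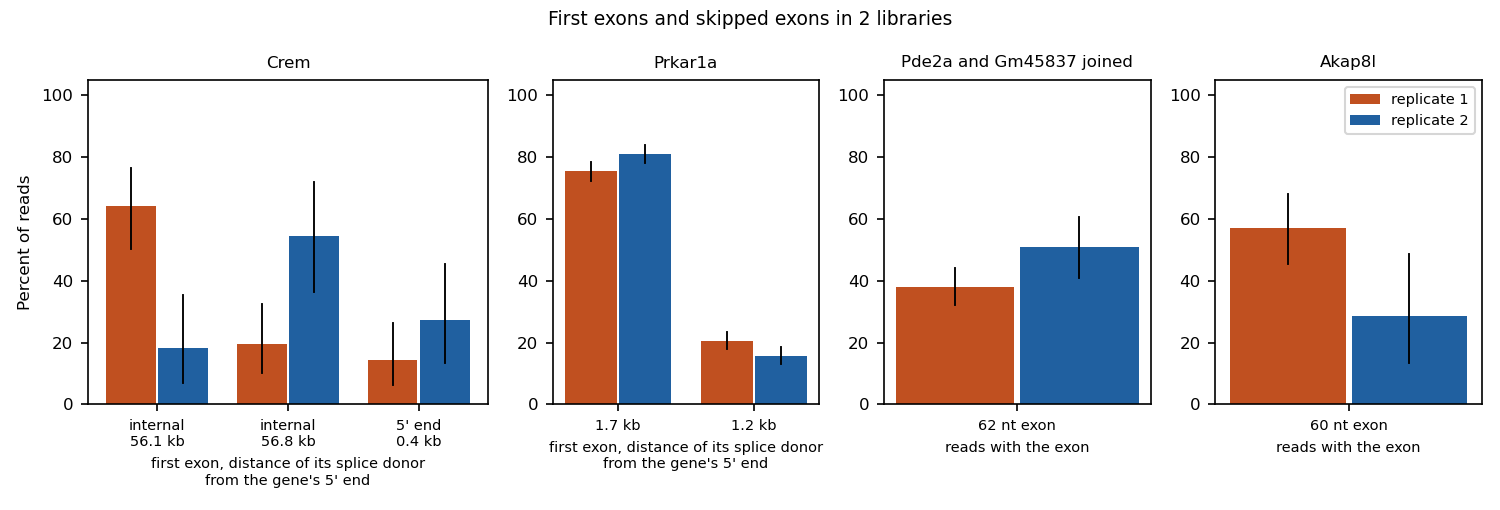
Percent of reads (0 to 100) that began at each first exon of Crem and Prkar1a, and that included the named exon of Pde2a joined with Gm45837 and of Akap8l, with replicate 1 left of replicate 2 and 95% Clopper-Pearson intervals for counting error. The internal first exon of Crem nearer the gene's start leads in replicate 1 (64.3% against 18.2%) and the other internal exon in replicate 2 (19.6% against 54.5%).

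Anchoring proteins had a sum of 579 CPM in replicate 1 and 417 CPM in replicate 2 over 15 genes, 10 of which were tested. Akap1, which anchors PKA at the outer mitochondrial membrane, was the highest, with 168 reads (223 CPM) in replicate 1 and 169 reads (140 CPM) in replicate 2. Its difference was called (log2 ratio 0.68 ± 0.16) but not under TMM or DESeq2 scaling. Akap8l and Akap8, neighbouring paralogs of the nucleus on chromosome 17, changed their order between the libraries. Akap8l had 103 reads (137 CPM) in replicate 1 and 50 reads (41.3 CPM) in replicate 2 (log2 ratio 1.72 ± 0.25). Akap8 had 37 reads (49.2 CPM) in replicate 1 and 80 reads (66.1 CPM) in replicate 2, not called at -0.42 ± 0.29 but called lower under TMM factors at -0.77. Akap8l reads were 2.78 per Akap8 read in replicate 1 (1.90 to 4.17) and 0.625 in replicate 2 (0.430 to 0.901).

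Akap9, the large scaffold of the Golgi and centrosome, was the 1 member called lower in replicate 1, with 8 reads (10.6 CPM) in replicate 1 and 52 reads (43.0 CPM) in replicate 2 (log2 ratio -1.94 ± 0.53). Of those reads 0 and 23 belonged to Akap9-207, a coding transcript of 8 exons and 2010 nt, while the longest coding transcript of Akap9 has 13123 nt. The first exon at the gene's 5′ end headed 0 of 8 spliced Akap9 reads in replicate 1 and 41 of 51 in replicate 2. Of those 41 reads, 1 was in a model that reached position 4044978. The rest were in models that ended at 3960989 or before, while the gene runs to 4081310. Akap9 exons overlap Cyp51 on the opposite strand, which had 147 and 245 reads. Akap12, a scaffold of the plasma membrane, had 19 reads (25.3 CPM) in replicate 1 and 2 reads (1.65 CPM) in replicate 2 (log2 ratio 3.65 ± 0.97). Akap7 had 53.2 CPM in replicate 1 and 36.3 CPM in replicate 2, and Akap10 31.9 and 21.5 CPM. Akap2 had 22 reads (29.2 CPM) and 57 reads (47.1 CPM), and its same-strand neighbour Pakap had 1 and 31 reads. Joined with Pakap, Akap2 had 30.6 CPM in replicate 1 and 72.7 CPM in replicate 2 and was called lower in replicate 1 (log2 ratio -1.23 ± 0.33). Akap13 had 11.96 and 11.6 CPM, Akap11 3.99 and 7.43 CPM, Akap6 2 and 1 reads, and Akap5 1 read in each library. Akap3, Akap4 and Akap14, known from sperm and ciliated cells, had 0 reads in both.

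**Figure D3:**
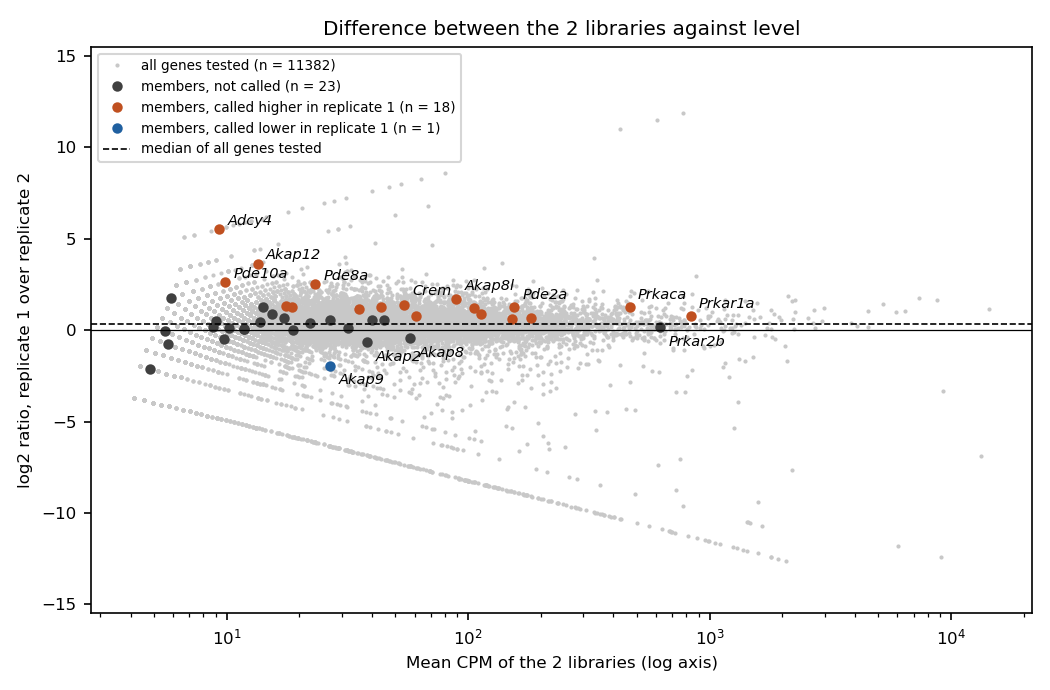
Log2 ratio of replicate 1 over replicate 2 against the mean level of each gene (CPM, log axis), with grey points for all 11382 tested genes and large points for the 42 pathway genes. The 18 pathway genes called higher in replicate 1 lie above the dashed line at 0.34, the median of all genes, and Akap9 at -1.94 is the member called lower.

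Of the transcription factors, Creb3, a membrane-bound factor of the endoplasmic reticulum and a distant relative of CREB, was the most abundant, with 139 reads (185 CPM) in replicate 1 and 146 reads (121 CPM) in replicate 2. Its call (log2 ratio 0.62 ± 0.17) was lost under TMM or DESeq2 scaling. Creb1, which encodes CREB itself, had 19 reads (25.3 CPM) in replicate 1 and 12 reads (9.91 CPM) in replicate 2, and its call was likewise lost. Crem, whose products include both activators and repressors of CREB targets, had 59 reads (78.4 CPM) in replicate 1 and 37 reads (30.6 CPM) in replicate 2 (log2 ratio 1.35 ± 0.30). The coactivators were low and not called. Crtc1 had 21.3 CPM in replicate 1 and 13.2 CPM in replicate 2, Crtc2 11.96 and 11.6 CPM, and Crtc3 7.97 and 11.6 CPM. Models that the authors class as genomic held 7 of 16 Crtc1 reads in replicate 1 and 13 of 16 in replicate 2. They held 3 of 6 and 9 of 14 Crtc3 reads, and 0 Crtc2 reads in each library. Without models of that class Crtc1 was called higher in replicate 1 (log2 ratio 2.11).

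Most Crem reads were of short transcripts that began inside the gene. An internal Crem promoter that cAMP induces is known to make ICER, a short repressor without the activating domains. Spliced models that began 55979 to 56670 nt from the gene's 5′ end took 48 of 56 spliced reads in replicate 1 (85.7%, 95% interval 73.8 to 93.6) and 24 of 33 in replicate 2 (72.7%, 54.5 to 86.7). Models that began within 260 nt of the 5′ end took 8 and 9 reads. The libraries differed in which internal first exon was read: the exon whose donor lies 56060 nt from the 5′ end headed 36 of 56 reads in replicate 1 (64.3%, 50.4 to 76.6) and 6 of 33 in replicate 2 (18.2%, 6.98 to 35.5). The exon whose donor lies 56799 nt from it headed 11 reads (19.6%, 10.2 to 32.4) in replicate 1 and 18 reads (54.5%, 36.4 to 71.9) in replicate 2. The leading chain, Crem-235, begins at the first of these and codes for 375 nt from a start codon in its first exon, with 17 of 56 spliced reads in replicate 1 and 0 of 33 in replicate 2 (adjusted p = 0.00295 by Fisher's exact test). Crem-229, from the same first exon with 339 coding nt, had 11 and 5 reads. Crem-206 and Crem-218, which begin at the second and have 306 and 285 coding nt, had 5 and 7 reads and 2 and 8 reads. Over both libraries Crem-235 had 17 reads and Crem-229 had 16, so the choice of the tested chain rests on a small margin in these same libraries.

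A coding exon of 36 nt was both kept and skipped in these short Crem models. After the first of the internal exons it was kept in 21 of 34 reads in replicate 1 (61.8%, 43.6 to 77.8) and 1 of 6 in replicate 2. After the second it was kept in 8 of 11 reads in replicate 1 and 8 of 18 in replicate 2, with intervals that overlap.

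Most intron chains of the members were read in only 1 library, but the shared chains held most spliced reads. Of 644 spliced chains of all members, 155 had reads in both, and these held 89.1% of spliced member reads in replicate 1 and 86.6% in replicate 2. The matching share over all genes is not given here, so these values are not set apart from those of other genes. Leading chain use could be tested in 12 members and was called in 3, Pde2a, Crem and Prkar1a, against 10.5% of 3650 genes tested, and in 2 once the overlapping records were joined. The leading chain of each gene was picked by its reads in these same libraries, and the Crem call depends on that pick. Akap1-201 took 71.9% of spliced reads in replicate 1 and 72.9% in replicate 2, Creb3-201 88.5% and 90.3%, and Pde12-201 98.3% and 98.1%. Akap8-201 took 45.7% and 40.5%. The leading chain of Akap8l, Akap8l-201, held 10 of 103 spliced reads in replicate 1 and 11 of 50 in replicate 2. These shares depend on the models counted: among known transcripts alone the leading one took a mean of 53.3% in Akap8l, against 15.9% over all spliced models, and 85.0% in Akap8, against 43.1%. A 60 nt coding exon of Akap8l was included in 45 of 79 reads in replicate 1 (57.0%, 45.3 to 68.1) and 8 of 28 in replicate 2 (28.6%, 13.2 to 48.7).

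In 4 of the 12 tested members, Adcy3, Pde8b, Akap7 and Pde2a, the leading chain was not of the known class. The matching share over all genes tested for chain use is not given here, so this count is not set apart from that of other genes. The leading chain was an incomplete splice match in Pde2a and of class NIC in Adcy3, Pde8b and Akap7. For Pde8b it was a 22-exon chain of annotated splice sites in a combination not annotated (class NIC), with 21 of 98 spliced reads (21.4%) in replicate 1 and 24 of 91 (26.4%) in replicate 2, a mean of 23.9%. Among known transcripts alone Pde8b-208 led over both libraries together, with a mean of 40.8%. It had 9 of 17 known reads in replicate 1 and 2 of 7 in replicate 2, where the retained-intron transcript Pde8b-209 had 3. Akap7 led with an 8-exon NIC chain, 16 reads in replicate 1 and 15 in replicate 2, ahead of the 2-exon Akap7-203 with 11 and 12.

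**Figure D4:**
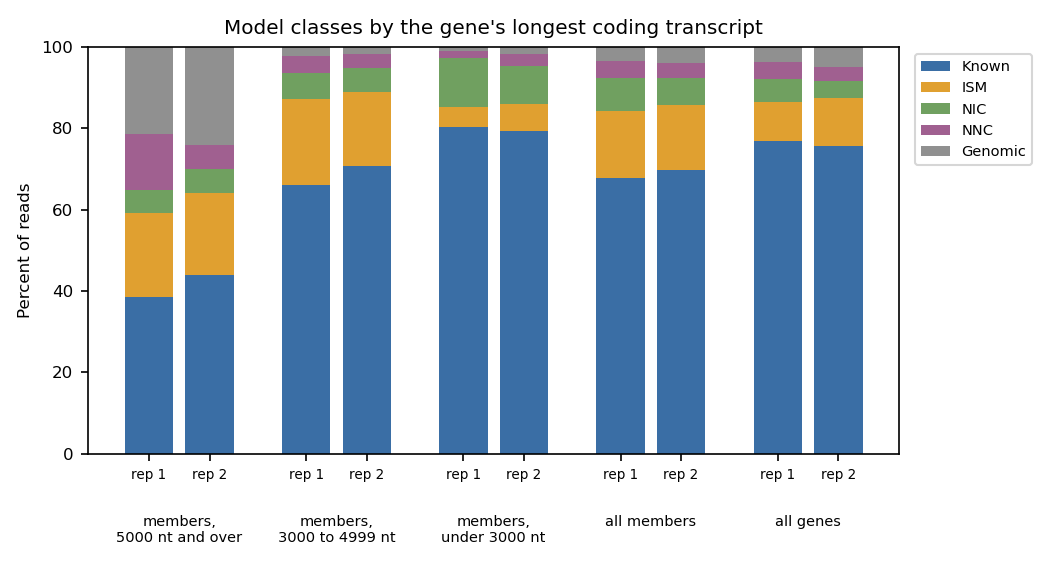
Percent of reads in each model class of the authors (known, incomplete splice match, NIC, NNC and genomic), for members grouped by their longest coding transcript, all members and all genes, with replicate 1 left of replicate 2. Known transcripts take the smallest share, 38.5% in replicate 1 and 44.0% in replicate 2, in members of 5000 nt and over.

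The share of reads in known transcripts was lowest for members with long transcripts. Known transcripts took 67.9% of member reads in replicate 1 and 69.8% in replicate 2, against 77.0% and 75.6% over all genes. In members whose longest coding transcript has under 3000 nt the share was 80.4% in replicate 1 and 79.3% in replicate 2. From 3000 to 4999 nt it was 66.2% and 70.8%, and from 5000 nt up it was 38.5% (95% interval 32.7 to 44.6) and 44.0% (38.7 to 49.5). Models of the genomic class took 21.5% and 24.1% of reads in that last group. Pde12 alone held 57 of the group's 104 known reads in replicate 1 and 51 of 148 in replicate 2. The intervals pool the reads of all genes in the group and do not cover the spread between genes.

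Partners of the pathway outside the name pattern were read in the same fit: of 63 listed genes, 53 had reads, 36 were tested, 8 were called higher in replicate 1 and 4 lower. Over all tested genes 25.3% were called higher and 11.5% lower, close to the partners' shares. Their median log2 ratio was 0.55. Gnas, the locus of the stimulatory G protein, exceeded every member, with 1829 CPM in replicate 1 and 1761 CPM in replicate 2, and was not called. The Gnas level sums all models of that record and was not split by the protein they encode. Among inhibitory G proteins Gnai3 was called higher (287 and 172 CPM), Gnai2 was not called (198 and 186 CPM), and Gnao1 was called higher with 11 reads in replicate 1 and 4 in replicate 2. Mrap, which brings the corticotropin receptor to the cell surface, had 367 CPM in replicate 1 and 122 CPM in replicate 2 and was called higher. Mc2r, that receptor, had 39.9 and 55.3 CPM and was not called, and Pth1r likewise had 57.1 and 80.1 CPM.

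The receptors called lower in replicate 1 were Gcgr, the glucagon receptor, with 1.33 CPM in replicate 1 and 218 CPM in replicate 2, and Adrb3, an adrenergic receptor of fat, with 79.7 and 119 CPM. Also lower were Creb3l3, a factor of liver and intestine, with 0 and 352 reads, and Rapgef4, a cAMP sensor other than PKA, with 35.9 and 237 CPM. The 6 liver genes stood at 5.32 CPM in replicate 1 and 43821 CPM in replicate 2, and the 6 adipocyte genes at 3692 and 2580 CPM. Their part in these differences was not tested. Of the genes upstream of the CRTC coactivators, Ppp3ca, a calcineurin catalytic subunit, had 130 and 61.9 CPM and was called higher in replicate 1. Crebzf, with 118 and 145 CPM, was not called. No PKA inhibitor was called: Pkig had 47.8 CPM in replicate 1 and 28.9 CPM in replicate 2, Pkia 1 and 0 reads, and Pkib none.

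In the order of mean levels, most neighbours had ranges over the 2 libraries that overlapped. Those ranges include the difference between the libraries, so genes with overlapping ranges can still keep their order within each library. Prkar1a, Prkar2b and Prkaca formed the top, with means of 834 ± 305, 626 ± 53.1 and 467 ± 270 CPM (SD, n = 2), and their ranges overlapped. Within a library Prkar1a stood above Prkaca, with 790 against 495 reads in replicate 1 and 749 against 334 in replicate 2. Prkar2b and Prkaca had 499 and 495 reads in replicate 1 and 712 and 334 in replicate 2. Prkaca at its lowest (276 CPM) stood above Akap1 at its highest (223 CPM). This order counts Pde2a without Gm45837, and the gap below Prkaca depends on that. With the records joined, the mean of Pde2a was 274 CPM, above the 181 CPM of Akap1. Its range, 132 to 416 CPM, then overlapped that of Prkaca. Within each library joined Pde2a still lay below Prkaca, at 416 against 658 CPM (replicate 1) and 132 against 276 CPM (replicate 2). From Akap1 down to the last tested member, Pde4c at 4.79 CPM, adjoining ranges overlapped except between Crtc2 and Adcy9.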

How the data were processed

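Long-read RNA-seq of adrenal gland was deposited as whole-number read counts per transcript model, 1 table and 1 annotation per library. Per the file headers these deposited counts are on mm10 with GENCODE M21, and each model has a class given by the authors; the aligner was not given in the sources used here. Reads of all models of an annotated mouse gene were summed, and CPM was taken per 1000000 of a library's reads in such genes. Models were joined between libraries by strand and intron chain. Fisher's exact test was run with SciPy 1.17.1 over all genes, with Benjamini-Hochberg adjustment at 0.05. For leading chains it took genes with at least 20 spliced reads in each library and 2 chains of at least 5 reads. Alternatives used edgeR 4.0.16 and DESeq2 1.42.0 (R 4.3.3) for scaling and an assumed coefficient of variation of 0.2. The code was tested on simulated data. Intervals are 95% Clopper-Pearson. Total depth was 793999 reads in replicate 1 and 1290342 in replicate 2. Members, partner lists and marker lists were chosen with earlier results of these data known. Named were every member, the partners with the highest mean CPM or, for receptors, G proteins and PKA inhibitors, a call, and leading chains of the most-read members and of Crem; the exons of Akap8l and Crem, Creb3l3 and Rapgef4 were also named after their values were seen. Strand of the library is taken from the deposited models, so reads at overlapping opposite-strand genes are uncertain.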

Additional observations from a re-analysis of the deposited data

Results flagged for a closer look

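Models that the authors class as antisense lay across members in both libraries with more than 3 reads each, and were used in no comparison above. Across Prkaca there were 10 reads in replicate 1 and 32 in replicate 2, across Akap8 6 and 30, across Pde4d 8 and 17, and across Prkar1a 11 and 17. Akap13 had 9 and 12 such reads, Pde8b 8 and 11, Akap2 5 and 9, Akap9 6 and 7, Adcy9 4 and 7, Pde10a 4 and 6, and Prkar2b 4 and 4. Nearly all of these reads were in unspliced models. Spliced ones numbered 0 and 2 across Akap8 and 1 and 0 across Pde4d, with none across the other members named here. A model was assigned to a member by overlap with its whole span, introns included, on the opposite strand.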

How the results depend on the processing

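The 18 members higher in replicate 1 became 10 with known transcripts only (of 23 members tested, with 28.8% of all genes higher) and 7 with an assumed coefficient of variation of 0.2 (of 42, with 6.53% higher), and stayed within 1.5 times under the other settings (12 to 19). The 1 member lower became 3 with TMM factors, DESeq2 size factors or totals without genes over 10-fold different (Akap9, Akap8 and Akap2), and 2 with known transcripts only, without genomic models, or with the overlapping records joined (Akap9 and Akap2). Of the 8 partners higher, 5 were called under each of the 3 other scalings and 3 with the assumed variation, and the 4 lower became 8 under each scaling. Of the 19 called members, 13 kept their call under each of those scalings and 8 with the assumed variation, and none reversed under any setting run. With known transcripts only, 11 of those with a value kept their call and 1, Akap8l, lost it. The summed level ran from 2634 CPM without replicate 1 to 4331 CPM without replicate 2. Shares of leading chains moved by over 1.5 times with known transcripts only in Akap8l (53.3%), Akap8 (85.0%) and Pde8b (40.8%). The Pde8b share rests on 17 known reads in replicate 1 and 7 in replicate 2. Joining overlapping records ended the call of Pde2a chain use, through the reads that Gm45837 held. The cause of the other changes was not tested. No paired analysis was possible because there is 1 group. Depth limits members under about 10 reads, and with 1 group no biological spread could be estimated.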
